A study of Mus musculus with 6 samples.

Results

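The 10 genes described here encode negative feedback regulators of the ERK branch of MAP kinase signalling and a pair of ETS-family transcription factors that ERK activity induces. They were taken by symbol: the dual-specificity phosphatase genes Dusp4, Dusp5 and Dusp6, the Sprouty genes Spry1, Spry2 and Spry4, the Spred genes Spred1 and Spred2, and the factor genes Etv4 and Etv5. Each symbol matched 1 of the 55401 gene IDs of the count tables, and all 10 passed the filter on low counts. Polyadenylated RNA was sequenced from bile duct epithelial cells (cholangiocytes) of 3 wild-type (WT) libraries and 3 libraries of mice with polycystic liver disease (PLD). Both groups were taken 3 months after tamoxifen, and the cells were collected from digested livers on magnetic beads carrying an antibody to EpCAM, an epithelial surface protein. The labels give the genotypes only as WT and PLD. They name no targeted gene, Cre driver, strain, age or sex, and do not say whether each library is 1 animal. The p-values therefore rest on a spread between libraries that may be technical.

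In this pathway, receptor tyrosine kinases activate Ras, which engages the kinases RAF, MEK and ERK in turn. Active ERK raises transcription of its own inhibitors: DUSP proteins remove the activating phosphates from MAP kinases, and Sprouty and Spred proteins act upstream, between the receptor and RAF. Etv4 and Etv5 belong to the PEA3 group of ETS factors, and their transcripts are widely read as ERK output. In the bile duct the pathway carries growth signals from EGF-type and other receptors, and cyst epithelium is a setting in which it is studied.

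The libraries held 15768561 to 16710548 counted reads. All 10 cholangiocyte markers listed were higher in PLD, where their summed level was 25890 to 35157 counts per 1000000 reads (CPM) against 7476 to 10503 in WT. All 12 endothelial markers were lower (summed level 523 to 847 CPM in PLD, 5688 to 7542 in WT), as were 8 of 10 fibroblast and stellate markers (1638 to 4422 against 6378 to 11533 CPM) and all 5 smooth muscle markers (99.6 to 151 against 1981 to 2145 CPM). No listed marker of these lists was at 0 in either group, so the preparations labelled cholangiocytes carried RNA of endothelial, fibroblast and smooth muscle type, more of it in WT. Of 7 hepatocyte markers 1 was higher and 3 lower (median log2 fold change -0.66). Their sum, 1584 to 5748 CPM in PLD and 1261 to 2159 in WT, was mostly Alb, which was not called. Of 6 mesothelial markers 4 were lower and only Msln was higher (median -2.14), and Msln, at 934 CPM in PLD against 17.2 in WT, made up most of their sum of 768 to 1166 CPM in PLD against 119 to 167. Alb and Msln are named after their values were seen. Of 7 macrophage markers 3 were higher and 4 not called (sum 1199 to 1635 against 595 to 719 CPM). Of 5 glial markers 4 were lower and 1 higher, of 7 lymphocyte markers 2 passed the filter and 1 was lower, and either sum stayed under 100 CPM in every library. The part of this shift in the results that follow was not tested, and in such bulk libraries fewer cells of a type and less RNA per cell cannot be told apart. PLD replicate 1 stood at one end of the PLD group for all 10 genes. It was the highest PLD library for Dusp4, Dusp5, Dusp6, Spry2, Etv4 and Etv5 and the lowest for Spry1, Spry4, Spred1 and Spred2. It also had the highest cholangiocyte sum and the lowest endothelial and fibroblast sums (523 and 1638 CPM) of all libraries.

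The feedback inhibitors did not move as a block. Between PLD and WT, 4 of the 10 genes were higher (Dusp4, Dusp5, Dusp6 and Spry2), 5 were lower (Spry1, Spry4, Spred1, Etv4 and Etv5), and Spred2 was not called. A call here is a Benjamini-Hochberg adjusted p under 0.05 in edgeR's quasi-likelihood fit of 15334 genes. Calls were common in these data: 55.4% of all tested genes were called, 27% higher and 28.4% lower. When the fit tested against a minimum log2 fold change of 1, Dusp4 was still called higher and Spry1 and Spry4 lower, while 14.8% of all genes were called (4.08% higher, 10.8% lower). With a trend in gene length taken out and the median gene kept near 0, 2 members were higher and 5 lower, among 54.2% of all genes (27.5% higher, 26.7% lower). Taken out without that centring, the trend put the median gene at 0.19 on the log2 scale, 58.1% of genes were called (35.5% higher, 22.6% lower), and 3 members were higher and 3 lower. The median log2 fold change of the members was -0.3, against 0.01 over all tested genes. For 9 of the 10 the PLD and WT values did not overlap, with PLD higher in 4 and lower in 5. The same was true of 66.2% of all tested genes, 33% with PLD higher and 33.2% with PLD lower. The calls for Dusp4, Dusp6, Spry1, Spry4 and Spred1 were kept whichever library was left out. Those for Dusp5, Spry2, Etv4 and Etv5 lay near the threshold and were each lost when some single libraries were left out.

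**Figure D1:**
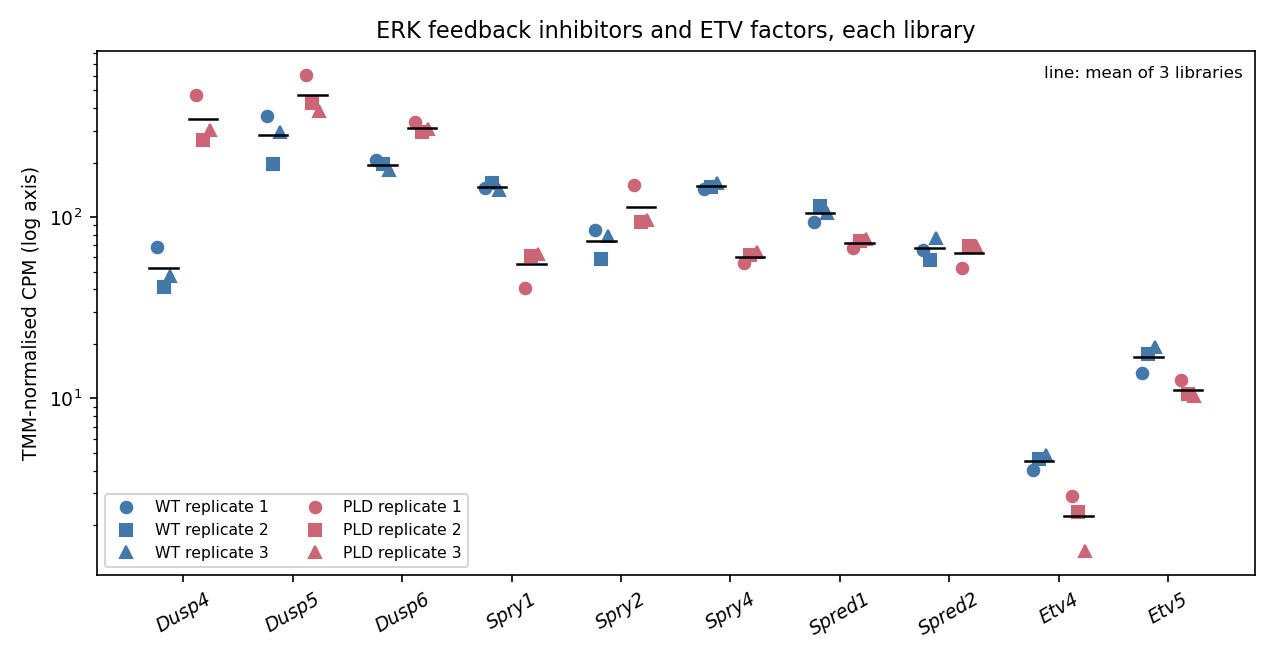
Level of each gene in each library as TMM-normalised CPM on a log axis, with WT in blue, PLD in red, a marker shape for each replicate number and a line at the mean of 3 libraries. Dusp4 lies furthest apart between the groups (41.4 to 68.6 CPM in WT, 266 to 472 in PLD), Spry1 and Spry4 lie below WT in all 3 PLD libraries, and the Spred2 values overlap.

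The 3 phosphatase genes were all higher in PLD by CPM, although Dusp5 and Dusp6 were lower when set against reads of the epithelial gene Epcam, as given further on. Dusp4 encodes a nuclear phosphatase that is induced by growth factors and acts on ERK and other MAP kinases (ENSMUSG00000031530.6, mm10 chromosome 8, 34807297 to 34819894, plus strand). Its level was 68.6, 41.4 and 47.6 CPM in WT replicates 1, 2 and 3 and 472, 266 and 302 CPM in the PLD replicates. The lowest PLD library was thus well above the highest WT library. The mean rose from 52.5 ± 14.2 to 347 ± 110 CPM (SD, n = 3 libraries each), a 6.6-fold change (log2 fold change 2.72 ± 0.28 SE, edgeR adjusted p = 0.000231). Of all tested genes 94.2% changed by less in either direction. The log2 fold change was 2.44 without PLD replicate 1, the library with the highest value.

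Dusp5 encodes a nuclear phosphatase selective for ERK (ENSMUSG00000034765.6, chromosome 19, 53529109 to 53542431, plus strand). It had 363, 196 and 296 CPM in WT and 611, 426 and 384 CPM in PLD. The groups were separated only by the gap between 363 and 384 CPM, and both spread widely. Its log2 fold change was 0.73 ± 0.26 SE (edgeR adjusted p = 0.0428), and the call was lost on leaving out WT replicate 2, WT replicate 3, PLD replicate 1 or PLD replicate 2 (adjusted p = 0.0997, 0.0958, 0.102 and 0.0699). An annotated gene on the opposite strand, AC137853.2, shares 547 bases of the Dusp5 exons. Counting is not stated to use strand, so reads in that stretch cannot be given to either gene with certainty.

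Dusp6 encodes the main cytoplasmic phosphatase for ERK (ENSMUSG00000019960.8, chromosome 10, 99263231 to 99267489, plus strand). It was the steadiest of the 3, with 207, 196 and 182 CPM in WT and 334, 294 and 307 CPM in PLD. Each group kept within a narrow range and the ranges were far apart. The change was 1.6-fold (log2 fold change 0.68 ± 0.10 SE, edgeR adjusted p = 0.00137) and held without any 1 library (0.63 to 0.73).

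The Sprouty genes split. Sprouty proteins are intracellular inhibitors that dampen signalling from FGF and other receptors towards Ras and RAF. Spry1 (ENSMUSG00000037211.12, chromosome 3, 37639947 to 37644598, plus strand) had 144, 155 and 142 CPM in WT and 40.8, 61.1 and 62.9 CPM in PLD. It was lower in every PLD library, lowest in PLD replicate 1. Mean levels were 147 ± 7.28 CPM in WT and 54.9 ± 12.3 CPM in PLD, a log2 fold change of -1.42 ± 0.17 SE (edgeR adjusted p = 0.000433). A predicted gene on the opposite strand, Gm42922, shares 710 bases of its exons, with the same limit as for Dusp5. Spry4 (ENSMUSG00000024427.7, chromosome 18, 38586247 to 38601415, minus strand) had 143, 146 and 155 CPM in WT and 55.7, 62 and 64.1 CPM in PLD, with little spread within either group. Its log2 fold change was -1.29 ± 0.10 SE, with the smallest adjusted p of the 10 genes (7.02e-05 by edgeR).

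By CPM, though not per Epcam read, Spry2 went the other way (ENSMUSG00000022114.5, chromosome 14, 105891947 to 105896819, minus strand). It had 84.8, 59 and 79 CPM in WT and 151, 93.6 and 96.7 CPM in PLD. PLD replicate 1 was far above the other PLD libraries, which lay just above the highest WT value. The log2 fold change of 0.62 ± 0.22 SE passed narrowly (edgeR adjusted p = 0.0435). It was lost without WT replicate 2, WT replicate 3 or PLD replicate 1 (adjusted p = 0.127, 0.0865 and 0.0793) and after centred removal of the length trend (adjusted p = 0.142). Without PLD replicate 1 its log2 fold change was 0.36.

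**Figure D2:**
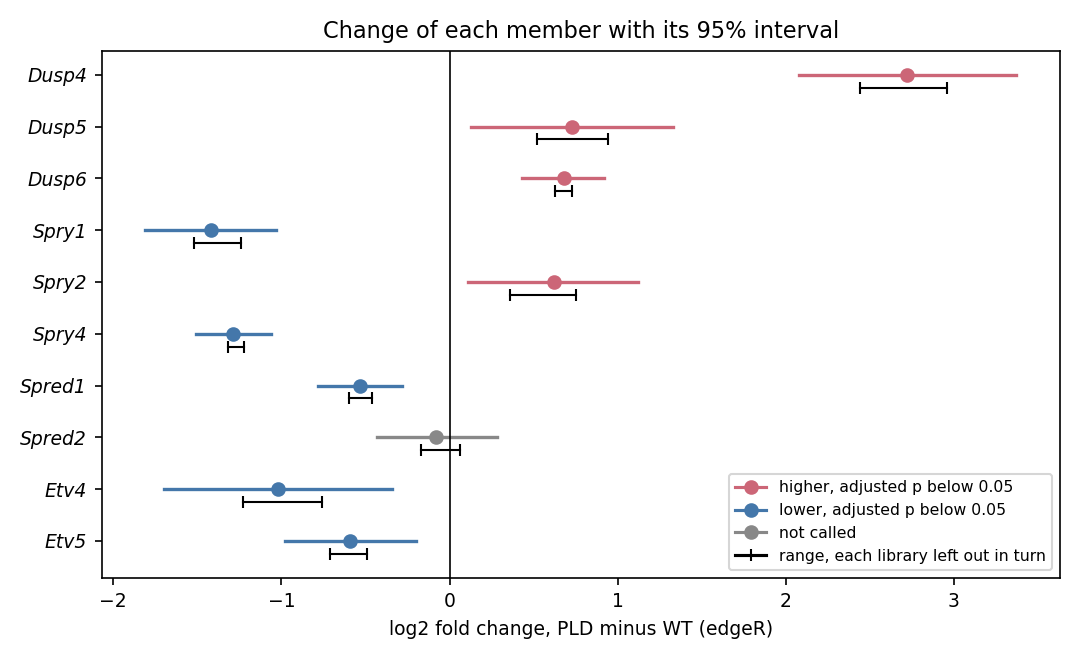
Log2 fold change of each gene, PLD minus WT, from edgeR (dots) with its 95% interval (coloured line) and, below it in black, the range when each of the 6 libraries is left out in turn. The interval of Spred2 (-0.43 to 0.28) spans 0, those of Dusp5 and Spry2 reach down to 0.13 and 0.11, and those of Dusp4, Spry1 and Spry4 lie far from 0.

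The Sprouty gene with the largest share of its family differed between WT and PLD, while among the phosphatases Dusp5 had the largest share in every library. Shares within a family were computed per library from reads per kilobase of gene model, so that they do not depend on scaling between libraries. A length trend that differs between libraries can still enter them, and shares with that trend removed were not computed. Its centred removal moved the log2 fold changes of Spry2 from 0.62 to 0.41, Spry1 from -1.42 to -1.5 and Spry4 from -1.29 to -1.24. Spry2 made up 33.7%, 25.2% and 31.8% of Sprouty reads per kilobase in the WT libraries and 73.8%, 56.8% and 56.9% in the PLD libraries. Spry1 had the largest share in every WT library and Spry2 in every PLD library. The mean share of Spry2 rose from 30.2 ± 4.5% to 62.5 ± 9.79% (SD, n = 3, two-sided exact permutation test p = 0.1, the smallest that 3 against 3 libraries can give). The share of Spry1 fell by 20.8 points and that of Spry4 by 11.5 points. Between the lower pair no shift was detected: the log2 ratio of Spry1 to Spry4 was 0.70 ± 0.11 in WT and 0.54 ± 0.24 in PLD (SD, n = 3), a difference of -0.16 that was within the spread (exact permutation p = 0.4).

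Among the phosphatases, Dusp4 made up 10.5%, 9.63% and 8.89% of reads per kilobase in WT and 32.8%, 26.7% and 30.3% in PLD. It was the least abundant of the 3 in each WT library, and in each PLD library it exceeded Dusp6. The log2 ratio of Dusp5 to Dusp6 was 0.85 ± 0.44 in WT and 0.92 ± 0.28 in PLD (SD, n = 3), a difference of 0.07 that was within the spread (exact permutation p = 0.8). On the same per-kilobase scale Dusp5 was the most abundant of the 10 genes in both groups, at 115 ± 34.1 CPM per kilobase in WT and 192 ± 48.7 in PLD, although in PLD its range overlapped that of Dusp4. Dusp4 was sixth of 10 in WT (19.2 ± 5.2, overlapping Spred1) and the second in PLD (127 ± 40.1, overlapping Dusp5 and Dusp6). Spry1 was the third in WT (50.7 ± 2.51) and the fifth in PLD (18.9 ± 4.22, overlapping Spred2).

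**Figure D3:**
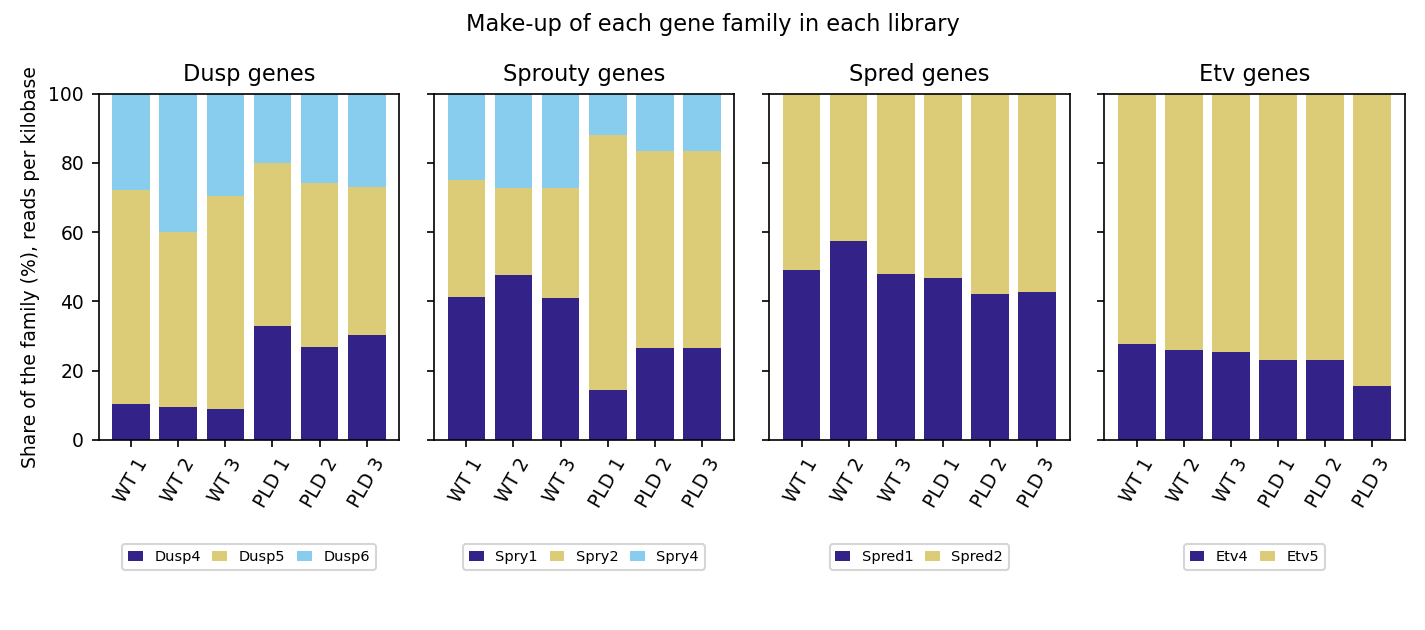
Share of each gene in the reads per kilobase of its family, in percent, as stacked bars for the 6 libraries. Spry2 takes 25.2 to 33.7% of the Sprouty bar in WT and 56.8 to 73.8% in PLD, Dusp4 takes 8.89 to 10.5% of the phosphatase bar in WT and 26.7 to 32.8% in PLD, and the Spred and Etv bars differ less.

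The start regions of Dusp6, Spry2 and Spry1 are shown. By CPM the first pair rose and the third fell, though each was lower per Epcam read. They were read from RefSeq (build GRCm38.p6), 250 bases before to 50 after the start, 5′ to 3′ on the gene's strand. Capitals mark matches to the octamers bound by Capicua (TGAATGAA, TGAATGGA, TCAATGAA or TCAATGGA, on either strand), a repressor that ERK signalling relieves.
Dusp6 (chr10:99262981-99263280, plus strand): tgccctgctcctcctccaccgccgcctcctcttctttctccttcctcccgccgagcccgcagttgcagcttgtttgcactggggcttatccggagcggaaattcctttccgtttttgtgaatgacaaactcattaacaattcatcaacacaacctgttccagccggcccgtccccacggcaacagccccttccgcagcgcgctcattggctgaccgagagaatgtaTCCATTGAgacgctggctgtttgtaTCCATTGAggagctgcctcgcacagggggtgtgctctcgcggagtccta
Spry2 (chr14:105896770-105897069, minus strand): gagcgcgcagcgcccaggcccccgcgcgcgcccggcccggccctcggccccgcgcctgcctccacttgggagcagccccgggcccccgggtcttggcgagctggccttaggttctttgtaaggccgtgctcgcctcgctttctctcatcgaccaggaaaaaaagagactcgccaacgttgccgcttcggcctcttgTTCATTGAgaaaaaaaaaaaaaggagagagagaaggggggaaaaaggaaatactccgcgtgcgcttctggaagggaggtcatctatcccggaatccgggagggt
Spry1 (chr3:37639697-37639996, plus strand): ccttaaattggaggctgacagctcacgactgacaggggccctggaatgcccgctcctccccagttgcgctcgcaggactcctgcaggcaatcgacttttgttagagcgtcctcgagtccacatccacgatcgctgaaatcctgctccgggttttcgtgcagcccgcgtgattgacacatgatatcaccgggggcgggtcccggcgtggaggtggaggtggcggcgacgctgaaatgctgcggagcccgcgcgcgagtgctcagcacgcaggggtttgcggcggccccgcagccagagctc
Dusp6 held 2 octamers, starting at -24 and at 2 from the start, Spry2 held 1 at -54, and Spry1 held none. Of 32851 RefSeq windows of this length 3.84% held at least 1 and 0.183% at least 2. A RefSeq window was found for 7 of the 10 genes, with 2 windows for Etv5, and not for Dusp4, Spry4 or Etv4. None of the other 5 windows (Dusp5, Spred1, Spred2 and both of Etv5) held an octamer. The regions shown thus include every member found with an octamer and leave out Dusp5, which also rose by CPM and had none. No window of the 7 genes held the ETS motif CCGGAAGT, the AP-1 motif TGANTCA or the cyclic AMP response element TGACGTCA, which occurred in 3.89%, 7.81% and 1.79% of all windows. At such rates, no match in so few windows says little. Only these letters were searched, so looser or shorter forms of the sites may be present. The windows of the 7 genes were rich in C and G (57 to 74%, median of all windows 52.7%). A match in these letters is a description of the sequence and does not show that a factor bound there. Transcripts of the repressor gene itself, Cic, were lower in PLD, at 170 ± 11.6 CPM against 216 ± 8.57 CPM, a log2 fold change of -0.35 ± 0.10 SE (edgeR adjusted p = 0.0189). Cic was named after its value was seen, and 28.4% of all tested genes were called lower. Whether Capicua had any part in the changes of Dusp6, Spry2 or other members was not tested.

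The Spred genes, whose products bring neurofibromin to the membrane to switch off Ras, were lower or not called. Spred1 (ENSMUSG00000027351.14, chromosome 2, 117121374 to 117182279, plus strand) had 94.1, 115 and 105 CPM in WT and 67.5, 73.8 and 76 CPM in PLD. The groups did not overlap, and the change was modest at 1.44-fold (log2 fold change -0.53 ± 0.11 SE, edgeR adjusted p = 0.00445). The call was lost with the length trend taken out uncentred (log2 fold change -0.24, adjusted p = 0.0969), under which the median gene stood at 0.19. Spred2 (ENSMUSG00000045671.17, chromosome 11, 19924375 to 20024026, plus strand) had 66.1, 58.3 and 77.1 CPM in WT and 52.1, 69.4 and 69.3 CPM in PLD. The ranges overlapped widely. Its log2 fold change was -0.08, with a 95% interval from -0.43 to 0.28 (edgeR adjusted p = 0.686).

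Both Etv genes were low and lower still in PLD. Etv5 (ENSMUSG00000013089.15, chromosome 16, 22381309 to 22439719, minus strand) had 13.9, 17.5 and 19.1 CPM in WT and 12.7, 10.6 and 10.3 CPM in PLD. WT replicate 1 and PLD replicate 1 were close, so the groups only just separated. The log2 fold change was -0.59 ± 0.17 SE (edgeR adjusted p = 0.019), and the call was lost in 4 of 6 analyses without 1 library, all except those without WT replicate 1 or PLD replicate 1. Etv4 (ENSMUSG00000017724.14, chromosome 11, 101769742 to 101785371, minus strand) had only 68, 79 and 79 reads in WT and 42, 39 and 24 reads in PLD, or 4.01, 4.66 and 4.88 against 2.89, 2.38 and 1.44 CPM. All PLD libraries were below all WT libraries. The 24 reads of PLD replicate 3 carry a 95% exact Poisson interval from 15.4 to 35.7, which covers counting error only. The log2 fold change was -1.02 ± 0.29 SE (edgeR adjusted p = 0.0201) and -0.76 without PLD replicate 3. The call was lost without WT replicate 2, WT replicate 3 or PLD replicate 2 (adjusted p = 0.0555, 0.0701 and 0.0539).

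Set against an epithelial transcript in the same library, 9 of the 10 genes were lower in PLD. That transcript rose itself, so a gene unchanged by CPM is also lower on this scale. Epcam, the gene of the protein used for selection, had 394, 254 and 417 CPM in WT and 1363, 973 and 919 CPM in PLD. Per 100 Epcam reads, Dusp4 had 17.4, 16.3 and 11.4 reads in WT and 34.6, 27.3 and 32.9 reads in PLD. Dusp4 was the only member above WT in every PLD library on this scale, with a mean 1.07 log2 units higher. This holds for Epcam as the reference. By CPM, the cholangiocyte markers Krt7 (3.68), Krt19 (3.26) and Tspan8 (2.76) rose by more than Dusp4 (2.72), and the rest of that list by less. Krt7 and Tspan8 are named after their values were seen. The other 9 were below WT in every PLD library. Dusp5, Dusp6 and Spry2, which were higher by CPM, were lower per Epcam read, by -0.88, -0.98 and -1.03 on the log2 scale. Dusp6, for example, had 52.5, 77.1 and 43.7 reads per 100 Epcam reads in WT and 24.5, 30.2 and 33.4 in PLD. Spry1 and Spry4 differed most, by -3.03 and -2.91, and Spred2, not called by CPM, differed by -1.65. Epcam itself was 1.61 ± 0.24 SE higher in PLD on the log2 scale (edgeR adjusted p = 0.00107), which lowers every ratio to it. The median log2 fold change of all tested genes was 0.01, so a typical gene was lower per Epcam read as well. The share of all tested genes lower on this scale was not counted.

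Set against the endothelial transcript Pecam1, all 10 genes were higher in every PLD library. Pecam1 fell from 826, 1079 and 905 CPM in WT to 61.4, 77.4 and 95 CPM in PLD. Its log2 fold change of -3.59 was below those of all 10 genes, which raises every ratio to it. A gene unchanged by CPM is also higher on this scale, and the share of all tested genes that is higher was not counted. The log2 change per Pecam1 read was smallest for Spry1 (2.15), Spry4 (2.31) and Etv4 (2.68) and largest for Dusp4 (6.36). In terms of log2 CPM, the falls of Spry1 (-1.42) and Spry4 (-1.29) were smaller than the median of the endothelial markers (-3.46) and nearer to that of the fibroblast markers (-1.66). Which cells the Spry1, Spry4, Spred1, Etv4 and Etv5 reads came from was not tested.

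**Figure D4:**
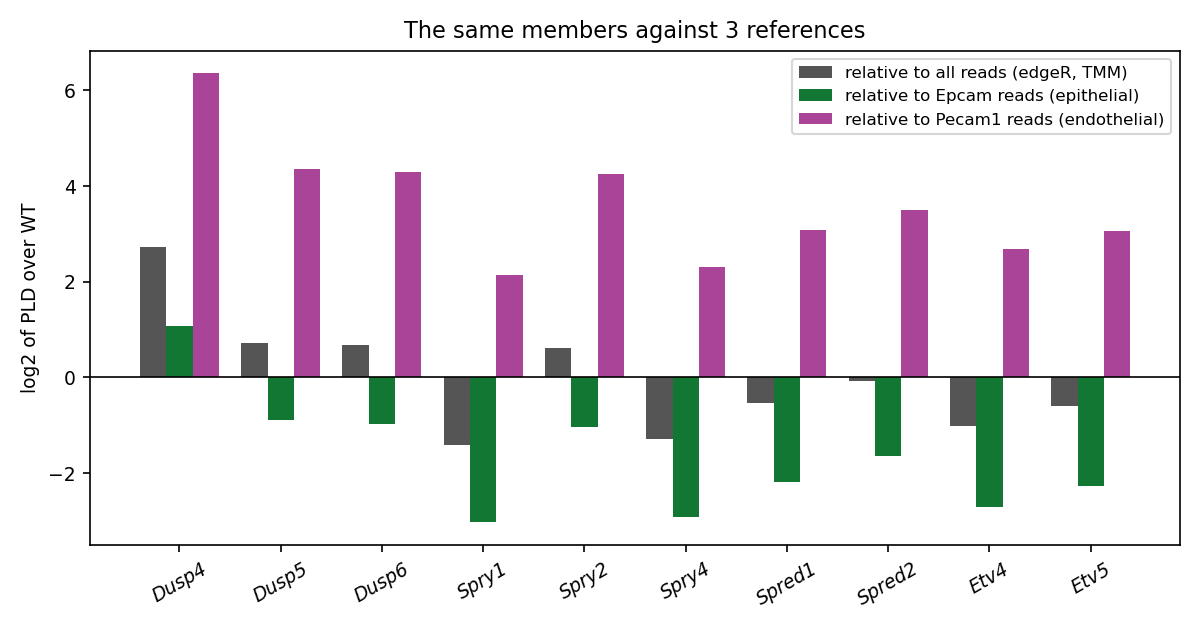
Log2 of PLD over WT for each gene relative to all reads (grey, edgeR), to Epcam reads (green) and to Pecam1 reads (purple), the last pair from group means of per-library ratios. Dusp4 is above 0 on all 3 scales (2.72, 1.07 and 6.36), Dusp5, Dusp6 and Spry2 change sign between the grey and green bars, and every purple bar is above 0. Ratios to other epithelial genes, some of which rose by more than Dusp4, are not drawn.

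The nearest relatives of the 10 genes also split. Of 9 listed, 2 were higher, 4 lower and 3 not called, with a median log2 fold change of -0.37. Beside this and each list that follows, 27% of all tested genes were called higher and 28.4% lower. The tables had no match for the symbol Spry3. Dusp9, which encodes an ERK phosphatase closely related to Dusp6, had 1, 1.24 and 0.618 CPM in WT and 27.9, 20.7 and 22.8 CPM in PLD. It was close to absent in WT and moderately expressed in every PLD library, a 24.7-fold difference (log2 fold change 4.63 ± 0.26 SE, edgeR adjusted p = 3.75e-05). That fitted change was above those of all 10 genes. Dusp10, which acts on JNK and p38 kinases, rose from a mean of 56.3 to 185 CPM. Dusp8, of the same preference, fell from 123 to 51.6 CPM. Dusp1, an early response phosphatase, had 1575 ± 102 CPM in WT and 2018 ± 541 in PLD and was not called (adjusted p = 0.164 by edgeR). Etv1, the third PEA3 gene, was at 3.92 ± 0.839 CPM in WT and 1.28 ± 0.117 CPM in PLD. Its log2 fold change was -1.61 ± 0.27 SE, on only 79, 51 and 66 reads in WT and 17, 23 and 21 in PLD. All 3 PEA3 genes were thus called lower, though the calls of Etv4 and Etv5 were lost when some single libraries were left out. Spred3 fell from 9.05 to 4.54 CPM, and 2 of 3 Spred genes were thus lower and none higher. Dusp1 and Spred3 were named after their values were seen.

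Of 22 genes of adaptors, Ras, RAF, MEK, ERK and ribosomal S6 kinases, 8 were higher and 3 lower, with 11 not called and a median log2 fold change of 0.16. Map2k1, encoding the kinase MEK1, rose from 92.5 ± 5.24 to 183 ± 26.2 CPM. The scaffold gene Ksr1 fell from 80 ± 7.32 to 39.4 ± 5.78 CPM and the ERK substrate kinase gene Rps6ka2 from 13.3 to 2.95 CPM. Of 17 other attenuators 4 were higher and 8 lower (median -0.3). The Ras GTPase activator gene Rasal2 fell from 98.3 ± 9.3 to 25.2 ± 4.2 CPM, while Rasal1, of the same family, rose from 13.5 ± 2.44 to 36.2 ± 3.82 CPM. Pea15a, encoding a protein that holds ERK in the cytoplasm, fell from 298 to 119 CPM, and Lrig3 from 13.2 to 2.68 CPM.

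Upstream, 5 of 19 receptor kinase genes were higher and 10 lower (median -0.59). The 5 higher ones were Erbb2, Erbb3, Fgfr2, Fgfr3 and Met, with log2 fold changes from 0.69 to 1.29, and are named after their values were seen. Flt1 (-3.33), Tek (-3.85), Kit (-3.39) and Flt4 (-2.22) were lower. Of the 10 lower receptors 5 are also on the endothelial or fibroblast marker lists, a count that depends on which genes were listed. Flt1 and Kit are on no marker list, yet their falls were near the median of the endothelial markers (-3.46). The rest, Fgfr1 (-0.68), Igf1r (-0.55) and Insr (-1.63), fell by less and are named after their values were seen. Downstream, 8 of 17 other ERK-induced transcripts were higher and 3 lower (median 0.07). Phlda1, a common component of ERK activity signatures, rose from 203 ± 27 to 408 ± 40.8 CPM, and the EGFR ligand gene Tgfa from 67.6 to 109 CPM. Plaur, encoding the urokinase receptor, rose from 541 to 2335 CPM, and another EGFR ligand gene, Areg, from 3.34 to 119 CPM. The 3 lower genes were the early response genes Egr1 (-0.82) and Fos (-0.75) and the cytokine gene Lif (-0.98), which are named after their values were seen. Genes known to be induced by ERK were found among the higher, the lower and the uncalled genes, as were the 10 genes described here.

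**Figure D5:**
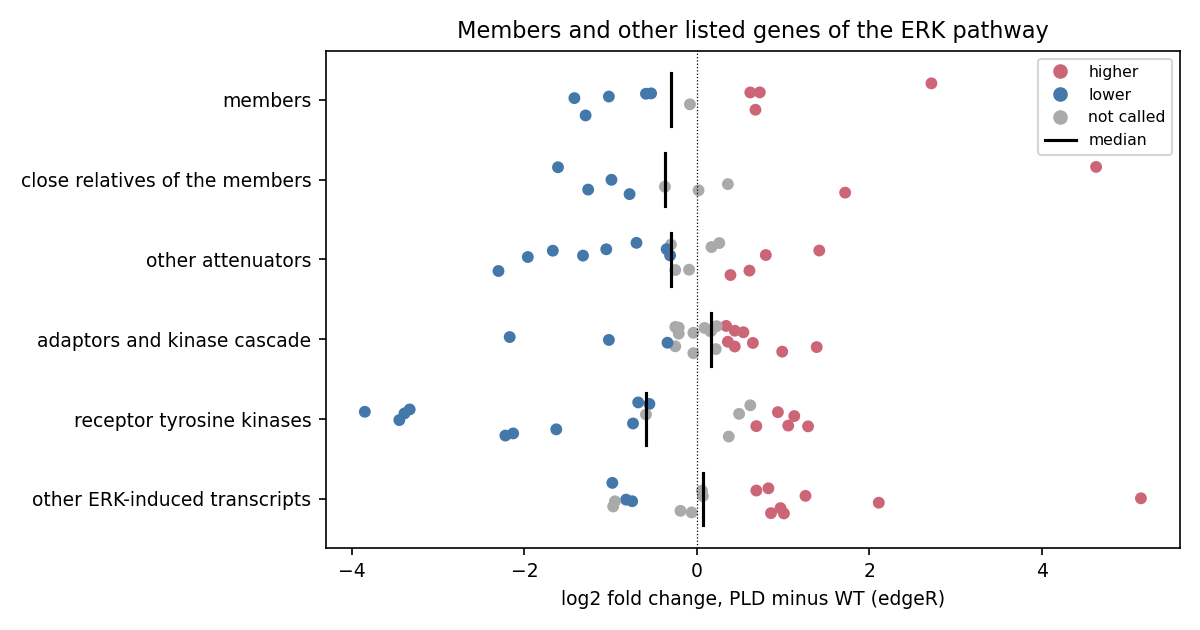
Log2 fold change, PLD minus WT, of the 10 genes and of each other list of ERK pathway genes, 1 dot per gene (red higher, blue lower, grey not called; vertical jitter carries no value) with a black line at the list's median. Every list holds genes on both sides of 0, with medians between -0.59 (receptor kinases) and 0.16 (adaptors and cascade).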

How the data were processed

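RNA-seq read counts of 6 libraries were used, 3 per group. The deposited values are raw counts per gene, made by the authors with featureCounts 1.6.0 on GENCODE vM25 for mm10, per the file headers. No option for strand, pairing, multi-mapping or overlapping genes is in that command. STAR 2.7.4a, SAMtools 1.12 and DESeq2 1.26.0 are named without settings, per the submitters' processing notes. Symbols were matched by ID for 55141 of 55401 genes.

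Counts were tested with edgeR 4.0.16 in R 4.3.3: filterByExpr kept 15334 genes, TMM factors ran from 0.922 to 1.04, and PLD was set against WT by a quasi-likelihood F test with no covariate. P-values were Benjamini-Hochberg adjusted over all tested genes (threshold 0.05). An SE was taken as the log2 fold change over the root of its F statistic. No replicate pair agreed within sampling noise (chi-square per degree of freedom 9.72 to 63.9). The edgeR, DESeq2 and limma-voom fits were also run on simulated counts with known changes, in which far fewer genes changed than were called here. The other settings, the family shares and the ratios to a marker gene were not. At these depths 3 reads, taken as a floor, equal 0.18 to 0.19 CPM.

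The members and lists were chosen with earlier results of these data known. The genes named are all members and, of each other list, up to 4 called genes with the smallest p; exceptions are marked, and 1 gene that the rule names is not reported here. Alternatives were DESeq2 1.42.0, limma-voom 3.58.1, RLE and upper-quartile factors, a replicate block, a robust fit, no filter, at least 1 CPM in 3 libraries, a minimum log2 fold change of 1, removal of a gene length trend (loess, span 0.5, centred or not) and leaving out each library. Sequences were read from RefSeq.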

Additional observations from a re-analysis of the deposited data

How the results depend on the processing

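Dusp4, Dusp6, Spry1 and Spry4 kept their direction, and all except Dusp6 their call, under every alternative fit of the counts. Among the ratios to a marker gene, Dusp6 was lower per Epcam read (-1.14 to -0.71 with libraries left out), and Spry1 and Spry4 were higher per Pecam1 read. The calls of all 10 genes were the same with DESeq2, limma-voom, RLE or upper-quartile factors, no filter, the 1 CPM filter, the robust fit and the replicate block. Tested against a minimum log2 fold change of 1, 6 calls were lost: Dusp5 (0.73), Dusp6 (0.68), Spry2 (0.62), Spred1 (-0.53), Etv4 (-1.02) and Etv5 (-0.59), which left 1 member higher and 2 lower, with 626 and 1650 of all genes. That test asks for more than a difference from 0. With the gene length trend removed and centred, Dusp5 (0.59) and Spry2 (0.41) lost their calls, leaving 2 higher; uncentred, Spry2 (0.58), Spred1 (-0.24) and Etv5 (-0.42) did, leaving 3 lower, and the cause was not tested.

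Leaving out each library in turn gave log2 fold changes of 0.52 to 0.94 for Dusp5, 0.36 to 0.75 for Spry2, -1.23 to -0.76 for Etv4 and -0.71 to -0.49 for Etv5. Between 2 and 4 members were higher, 3 to 5 lower, and 2 to 5 of the adaptor and kinase genes were lower, in fits that called 43.2% (without WT replicate 3) to 55.3% (without PLD replicate 1) of all tested genes. Such fits leave 1 group with 2 libraries. Same-numbered libraries of WT and PLD share no stated source, and their deviations correlated at 0.16, 0.036 and 0.061. WT replicate 1 correlated best with PLD replicate 1, but WT replicate 2 did so with PLD replicate 3 and WT replicate 3 with PLD replicate 2. The numbers were therefore not taken as pairs. With the replicate block, 3920 genes were higher and 4242 lower, and the log2 fold changes of Dusp5, Spry2, Etv4 and Etv5 were 0.75, 0.60, -1.05 and -0.59. Their edgeR adjusted p-values in that fit were 0.00984, 0.00996, 0.0366 and 0.0429, smaller than without the block for Dusp5 and Spry2 and larger for Etv4 and Etv5. Etv4, at 24 to 79 reads, had the fewest reads.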
